A study of Mus musculus with 12 samples.

Results

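The cytochrome P450 genes of differentiated 3T3-L1 adipocytes were 97 genes whose array symbol began with Cyp, a family number, a subfamily letter and a gene number. Each gene was represented by 1 transcript cluster, the one with the highest mean signal, out of 22104 clusters on the array, of which 19509 named 19480 genes. The genes divided into 68 of families 2 and 4, which hold most of the known oxidases of polyunsaturated fatty acids, and 29 of other families. 3 of the 97 symbols are those of pseudogenes. Cyp51 lies outside the symbol pattern and was kept apart, and Cyp19a1, Cyp2c29, Cyp2d11 and Cyp4v3 were not analysed here.

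Cytochrome P450 enzymes are haem proteins of the endoplasmic reticulum or mitochondrion that insert an oxygen atom into lipids, steroids, vitamins and foreign chemicals, with electrons passed on by a reductase or a ferredoxin. On polyunsaturated fatty acids such as alpha-linolenic acid (ALA), an omega-3 fatty acid, epoxygenases of the Cyp2c and Cyp2j subfamilies form epoxides, and hydroxylases of the Cyp4a and Cyp4f subfamilies oxidise the end of the chain. Soluble and microsomal epoxide hydrolases open the epoxides. The liver is the organ best known for P450 expression, whereas Cyp1b1 is typical of mesenchymal cells.

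3T3-L1 is a mouse fibroblast line that turns into fat cells on hormonal induction. Cells were treated from day 0 to day 8 of differentiation with 50 µM ALA plus 5 µM of an inhibitor of delta-6 desaturase (the enzyme encoded by Fads2 that starts the lengthening of ALA), with 50 µM ALA alone, with 5 µM inhibitor alone, or with ethanol and DMSO as control. Each treatment was given to cells of passages 6, 7 and 8, so that there were 12 arrays, 3 for each treatment and 4 for each passage, and total RNA was taken on day 8. All cells were in insulin-containing maintenance medium after induction, and the labels give 2% albumin for the ALA medium and name the vehicles for the control only. The 12 arrays come from 1 cell line, so p-values rest on variation among its cultures alone. In the treatment comparisons the 3 arrays of a group came from different passages. Each passage held every treatment once and was not repeated. The p-values between passages therefore rest on the variation left within passages once treatment was fitted, not on that between repeats of a passage. Passage cannot be told apart from anything else that differed between those rounds of culture or array work.

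The values are log2 signals after RMA. The median of all cluster means was 6.19, the medians of single arrays lay between 6.14 and 6.27, and the lower quartile of all cluster means was 4.47. Signals of different clusters also depend on how well their probes bind, and no detection call was used, so a level is given below against these marks and not as RNA abundance. The ALA array of passage 7 stood apart, with correlations of 0.976 to 0.987 with the others, against 0.989 to 0.994 among the other 11. All 8 adipocyte markers were above the median, with means of 9.92 to 13.08. None of the 5 hepatocyte markers was above it, with means of 4.35 to 5.86, and neither was any of 4 macrophage or 3 endothelial markers. Of 3 measured preadipocyte markers, Dlk1 with 11.42 and Thy1 with 9.65 were above the median and Cd34 with 5.32 was not. Fads2 had a mean of 12.60. In such bulk RNA, fewer cells of a type and less RNA per cell cannot be told apart.

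Promoter windows are shown for both of the genes that passed the test between passages, Cyp2f2 and Cyp2a12, and for Cyp1b1 and Cyp20a1, whose signal was well above the median. Each window is the 300 bases from 250 before to 50 after the gene's start, in RefSeq on mouse build GRCm38.p6, and CG dinucleotides are in capitals. The windows lie at chr17:79715012-79715311 on the minus strand for Cyp1b1, chr1:60343050-60343349 on the plus strand for Cyp20a1, chr7:27119705-27120004 on the plus strand for Cyp2f2 and chr7:27028840-27029139 on the plus strand for Cyp2a12.
Cyp1b1: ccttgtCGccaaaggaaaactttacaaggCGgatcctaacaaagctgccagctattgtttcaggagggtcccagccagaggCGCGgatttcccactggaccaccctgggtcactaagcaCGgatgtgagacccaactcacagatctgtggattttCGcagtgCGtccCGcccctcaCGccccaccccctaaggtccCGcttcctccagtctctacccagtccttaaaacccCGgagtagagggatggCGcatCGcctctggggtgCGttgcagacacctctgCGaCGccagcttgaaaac
Cyp20a1: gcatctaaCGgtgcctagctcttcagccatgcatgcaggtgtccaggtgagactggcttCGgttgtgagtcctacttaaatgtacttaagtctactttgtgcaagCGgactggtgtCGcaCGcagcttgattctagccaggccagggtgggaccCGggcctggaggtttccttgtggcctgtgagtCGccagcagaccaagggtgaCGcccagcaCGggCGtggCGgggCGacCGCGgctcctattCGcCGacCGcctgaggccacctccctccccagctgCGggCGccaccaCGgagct
Cyp2f2: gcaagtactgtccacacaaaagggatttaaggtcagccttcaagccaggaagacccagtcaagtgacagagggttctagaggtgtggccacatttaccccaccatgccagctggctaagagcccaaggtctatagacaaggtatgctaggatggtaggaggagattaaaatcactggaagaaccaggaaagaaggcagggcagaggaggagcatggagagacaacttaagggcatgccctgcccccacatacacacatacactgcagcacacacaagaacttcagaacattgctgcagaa
Cyp2a12: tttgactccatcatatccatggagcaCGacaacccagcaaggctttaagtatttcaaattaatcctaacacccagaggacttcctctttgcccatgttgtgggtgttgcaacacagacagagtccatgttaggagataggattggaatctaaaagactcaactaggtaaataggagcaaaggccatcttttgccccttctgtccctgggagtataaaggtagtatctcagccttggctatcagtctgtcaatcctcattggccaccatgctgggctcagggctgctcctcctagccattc

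The Cyp20a1 window held 20 CG dinucleotides and the Cyp1b1 window 16, against a median of 7 over 32851 mouse promoter windows of the same length. At least 20 were present in 26.5% of all windows and at least 16 in 33.0%. The Cyp2a12 window held 1 and the Cyp2f2 window 0. At most 1 was present in 14.1% of all windows, and none in 5.4%. The letters GCGTG, the core of the element bound by the aryl hydrocarbon receptor with Arnt, were searched on both strands and occurred 1 time in the Cyp1b1 window, 2 times in the Cyp20a1 window and 0 times in the other two. At least 1 match was present in 32.4% of all windows. A window was at hand for 71 of the 97 genes (73.2%), under the 80% needed, so a comparison of promoter composition over the P450 genes is void and none was made.

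Most P450 genes had low signal in these adipocytes. Of the 97, 15 (15.5%) had a mean above the median of all clusters, and 51 (52.6%) lay below the lower quartile of all clusters. There were 13 genes above the median on all 12 arrays and 78 above it on none. Between 15 and 16 P450 genes were above the median on each array, whatever the treatment or passage. Families 2 and 4 had 12 of 68 genes above the median (17.6%) and the other families 3 of 29 (10.3%).

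**Figure D1:**
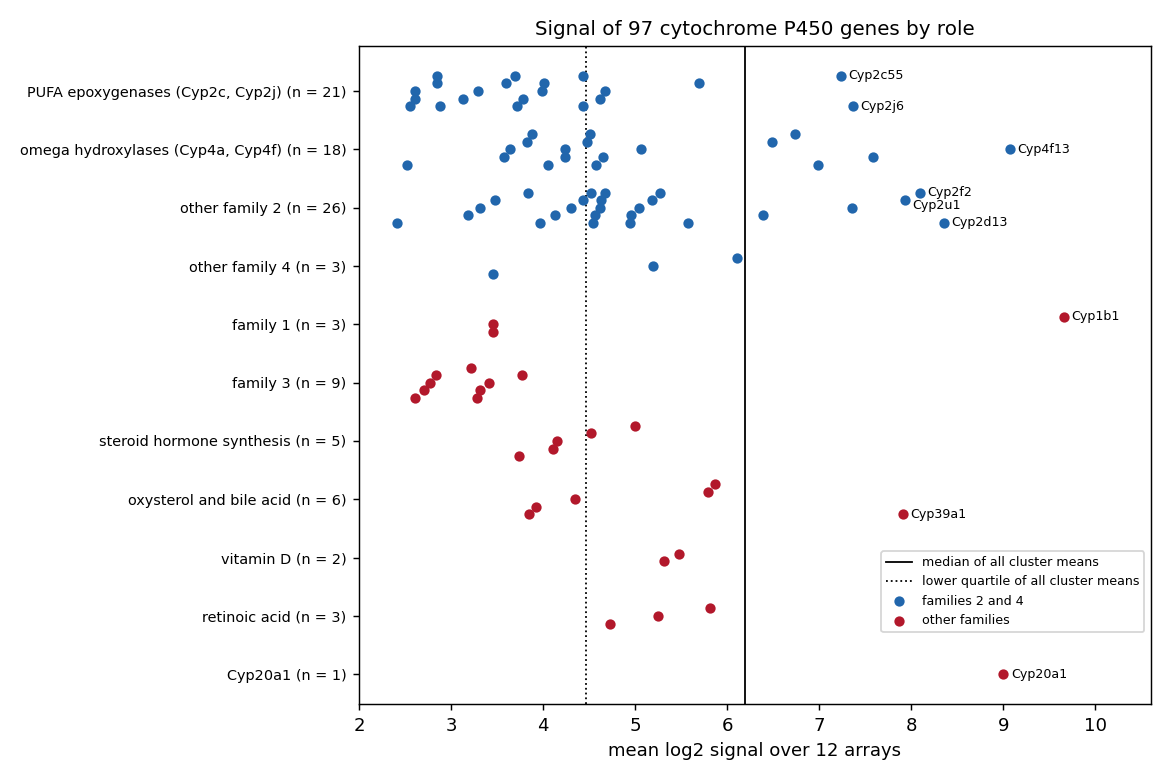
Mean log2 signal over 12 arrays (horizontal axis) of each P450 gene, 1 point a gene, with rows for the enzymes' roles; the solid line is the median (6.19) and the dotted line the lower quartile (4.47) of all cluster means. In total 15 genes lie right of the solid line, 12 of families 2 and 4 (blue) and 3 of other families (red), and all 9 genes of family 3 lie left of the dotted line.

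Among enzymes that act on fatty acids, the Cyp4f subfamily had the largest share of genes above the median, 5 of 10. Cyp4f13 had a mean of 9.07, Cyp4f17 of 7.58, Cyp4f37 of 6.99, Cyp4f16 of 6.74 and Cyp4f18, a leukotriene hydroxylase of mouse neutrophils, of 6.48. None of 8 genes of the Cyp4a subfamily, peroxisome proliferator-inducible omega hydroxylases of liver and kidney, was above it, and 7 of those 8 lay below the lower quartile, Cyp4a14 with 3.88 among them, while Cyp4a10 had 4.65. Of the epoxygenase subfamilies, 1 of 14 Cyp2c genes and 1 of 7 Cyp2j genes were above the median, Cyp2c55 with 7.24 and Cyp2j6 with 7.37. In total 16 of these 21 epoxygenase genes were below the lower quartile.

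The remaining genes of family 2 had 5 of 26 above the median. Cyp2d13 had a mean of 8.36, Cyp2d9 of 7.36 and Cyp2d40 of 6.39. Cyp2d genes are alike in sequence, and whether their probes share signal was not tested. Cyp2f2, known for oxidising naphthalene in mouse airway cells, had 8.10, and Cyp2u1, a fatty acid hydroxylase in humans, had 7.93. Cyp4b1, which oxidises short and medium fatty acids, lay just under the median with 6.10.

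Outside families 2 and 4, Cyp1b1, which oxidises oestrogens and polycyclic hydrocarbons, had a mean of 9.66, and Cyp20a1, an enzyme with no settled substrate, had 9.0. The sterol hydroxylase gene Cyp27a1 had 4.35 and the steroid side-chain cleavage gene Cyp11a1 4.11. The other 2 genes of family 1, Cyp1a1 and Cyp1a2, were below the lower quartile. Cyp39a1, an oxysterol hydroxylase of bile acid synthesis, had 7.91 and was the one gene of 6 in its role above the median. Cyp7b1, another oxysterol hydroxylase, had 5.86, the retinoic acid hydroxylase Cyp26b1 5.81 and the cholesterol hydroxylase Cyp46a1 5.80. All 9 genes of family 3, the main drug oxidases of liver, were below the lower quartile, with means of 2.61 to 3.77, the last that of Cyp3a11. None of 5 genes of steroid hormone synthesis, 2 of vitamin D and 3 of retinoic acid metabolism was above the median.

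Signals varied over the 12 arrays about as much as those of other clusters of like level. The median range of a P450 gene was 0.53 on the log2 scale for the 15 above the median, against 0.55 for all clusters above it, and 0.84 for the 82 below, against 0.83 for all clusters below. Cyp4f16 was below the median on 1 array, the ALA array of passage 7, with 5.52, and had 6.47 to 7.18 on the others. The same array held the highest Cyp2d9 signal, 8.11, with 6.95 to 7.86 on the others, and the highest Cyp2d13 signal, 8.85, with 7.82 to 8.62 on the others. Values without this array stand beside those of the genes named by p in the treatment comparisons and the interaction that it enters.

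**Figure D2:**
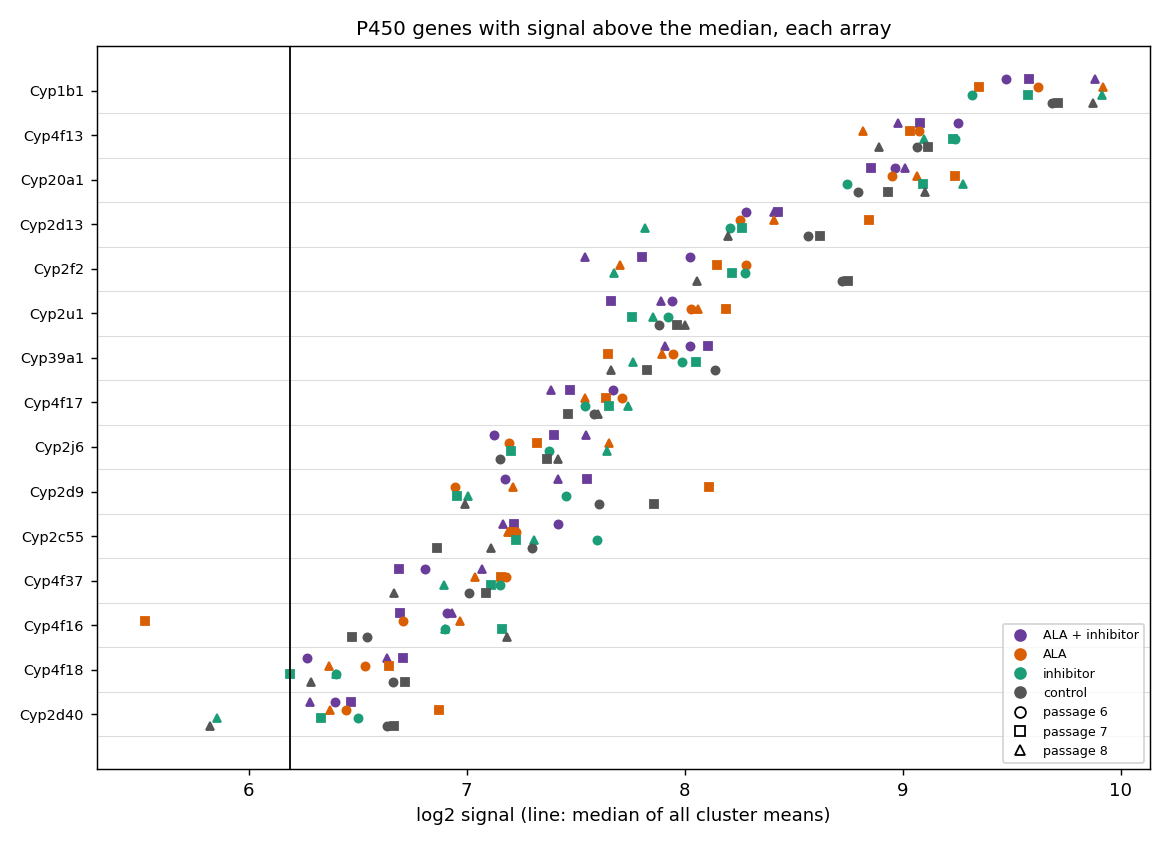
Log2 signal (horizontal axis) on each of the 12 arrays for the 15 P450 genes with a mean above the median of all clusters (vertical line), coloured by treatment and shaped by passage. Apart from Cyp4f16 on the ALA array of passage 7 and Cyp2d40 in passage 8 of the inhibitor and control cells, each point lies at or right of the line.

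Genes whose products work with the P450 enzymes are described by the side of the median on which they fell. All 7 measured electron donors and redox partners of 11 on the list were above the median. The reductase genes Por and Fdxr were on the list but not among these 7. Of 11 measured genes of haem synthesis and breakdown, 10 were above the median. Both of the best-known epoxide hydrolases were above it, Ephx1 with 10.27 and Ephx2 with 9.47, whereas Ephx3 and Ephx4 were not. Of 20 measured transcription factors that control P450 genes, 11 were above the median. They included Pparg with 11.74 and Arnt with 9.36, and not Ahr with 5.61, Ppara with 5.08 or the pregnane X receptor gene Nr1i2 with 4.51. Among P450 enzymes outside the symbol pattern, the lanosterol demethylase gene Cyp51 had 10.02, the prostacyclin synthase gene Ptgis 8.49 and the thromboxane synthase gene Tbxas1 5.24. Cyp2ab1 had 9.03.

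The series asked how ALA changed expression against control. No P450 gene passed an adjusted p of 0.05 in limma's moderated test, as did none of the 22104 clusters (0%). At the unadjusted threshold of 0.01 that the series' design names, 3 of 97 P450 genes were called, 2 higher and 1 lower, against 0.525% of all clusters. At an unadjusted p under 0.05 there were 5, against 3.41% of all clusters. None of the 3 genes at 0.01 had a mean above the median. All 3 lay among the dimmest 30% of clusters, where probe background is a larger share of the value. Over the 97 genes, 57 had a positive difference, with a median of 0.04, against 52.2% of all clusters and a median of 0.01.

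Cyp2j13, a member of the epoxygenase subfamily, had 3.01, 2.94 and 2.84 in ALA cells of passages 6, 7 and 8, against 3.59, 3.58 and 3.76 in control cells. Every ALA array was below every control array. The difference was -0.71 ± 0.11 (SE), with an unadjusted p of 3.1e-05 and an adjusted p of 0.695 in limma, and -0.72 without the ALA array of passage 7. Cyp4a29, an omega hydroxylase by subfamily, had 3.96, 3.87 and 4.09 in ALA cells, against 3.55, 3.33 and 3.29 in control cells. Again the groups did not overlap, with ALA higher. The difference was 0.58 ± 0.13 (SE; unadjusted p of 0.00049, adjusted p of 1.0 in limma), and 0.64 without the ALA array of passage 7. Cyp4f14, a leukotriene hydroxylase of mouse liver, had 4.90, 4.82 and 4.40 in ALA cells, against 4.16, 4.37 and 4.23 in control cells. Its difference of 0.45 ± 0.15 had an adjusted p of 1.0 in limma. Without the ALA array of passage 7 it was 0.40, with an unadjusted p of 0.028. The next genes by p were Cyp26c1, a retinoic acid hydroxylase, with 5.56 ± 0.31 in ALA cells and 5.08 ± 0.20 in control cells, and Cyp2c50, with 4.41 ± 0.03 in ALA cells and 4.96 ± 0.47 in control cells (SD, n = 3 each; adjusted p of 1.0 for both in limma). Without that array the difference of Cyp26c1 was 0.31 in place of 0.48, and that of Cyp2c50 was -0.53 in place of -0.54. Non-overlapping arrays were found for 8 genes with ALA higher, against 3.86% of all clusters, and 3 with ALA lower, against 2.91%.

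For the inhibitor against control, no P450 gene and no cluster (0%) passed an adjusted p of 0.05 in limma. At an unadjusted p under 0.01, 2 P450 genes were lower and none higher, against 0.855% of all clusters, and at 0.05 there were 7, against 4.32%. Cyp17a1, the hydroxylase and lyase of androgen synthesis, had 2.94, 3.68 and 3.52 in inhibitor cells of passages 6, 7 and 8, against 4.04, 4.14 and 3.82 in control cells. The lowest inhibitor array was that of passage 6, and no inhibitor array reached a control array. The difference was -0.62 ± 0.19 (SE), with an adjusted p of 0.998 in limma, and -0.40 without the inhibitor array of passage 6. Cyp2j13 had 3.33, 3.16 and 3.39 in inhibitor cells, against 3.59, 3.58 and 3.76 in control cells, a difference of -0.35 ± 0.11 with an adjusted p of 0.998. The next genes by p were Cyp4a12a, with 3.85 ± 0.39 in inhibitor cells and 3.21 ± 0.26 in control cells, Cyp2c70, with 3.76 ± 0.17 in inhibitor cells and 4.09 ± 0.06 in control cells, and Cyp4a30b, with 4.03 ± 0.05 in inhibitor cells and 4.33 ± 0.10 in control cells (SD, n = 3 each; adjusted p of 0.998 for each in limma). These comparisons share their control arrays with those of ALA. There were 4 genes with every inhibitor array higher and 4 with every one lower than every control array, against 5.88% and 4.97% of all clusters. Positive differences were found for 45 of 97 genes, against 49.2% of all clusters. Once arrays were centred on their medians, they were found for 53 genes, against 13531 of all 22104 clusters. The side of the majority thus depends on the scaling for P450 genes and for all clusters alike. All 3 measured preadipocyte markers of 5 on the list had negative differences here, with a median of -0.32 and none past the adjusted threshold in limma. Their mean per array was 8.56 to 8.71 in inhibitor cells and 8.82 to 9.02 in control cells. Other lists also leaned lower, with positive differences for 1 of 8 adipocyte markers (median -0.07) and 0 of 4 macrophage markers (median -0.20). Those of hepatocytes had 3 of 5 positive and those of endothelium 1 of 3. The part of these markers in the P450 values was not tested.

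**Figure D3:**
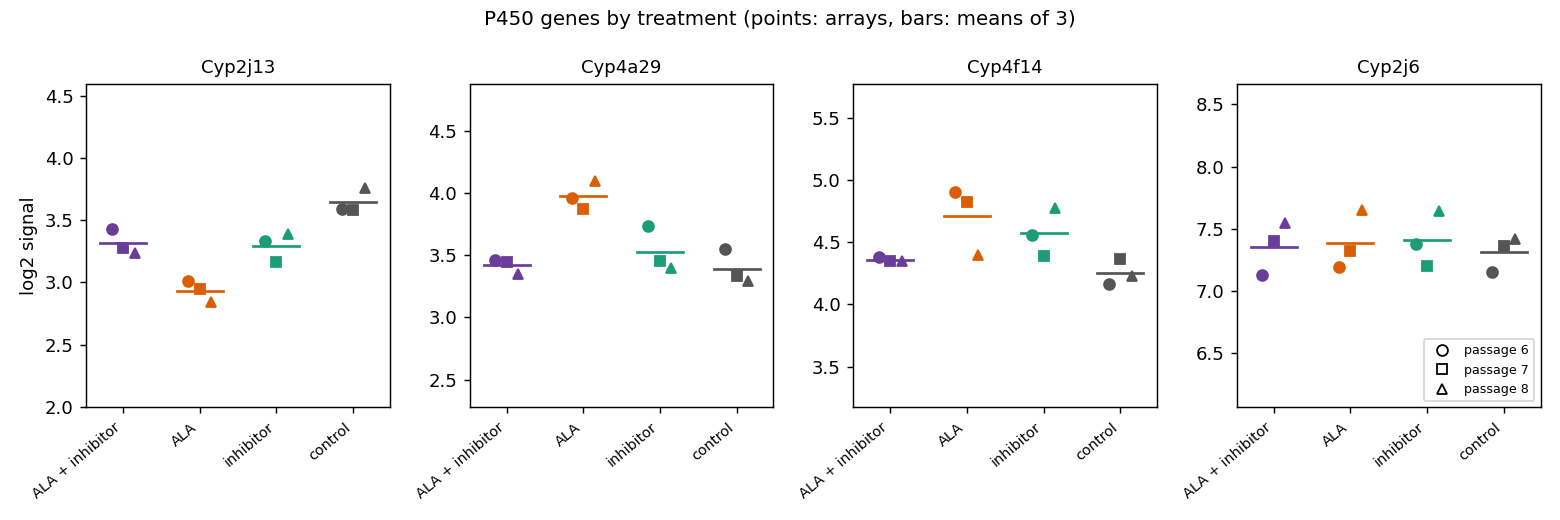
Log2 signal (vertical axis) of Cyp2j13, Cyp4a29, Cyp4f14 and Cyp2j6 in ALA plus inhibitor, ALA, inhibitor and control cells; each point is an array, shaped by passage, and each bar the mean of 3. ALA arrays lie lowest for Cyp2j13 and highest for Cyp4a29, whereas Cyp2j6 differs more between passages than between treatments.

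With both agents against ALA alone, the P450 genes again had no call at an adjusted p of 0.05 in limma, nor had any cluster (0%). At an unadjusted p under 0.01, 5 were called, 2 higher and 3 lower, against 1.47% of all clusters, and 15 at 0.05, against 7.27%. Cells of the same passage deviated together here, and with the passage as a block there were 8 genes at 0.01, 2 higher and 6 lower, against 2.54% of all clusters, and still 0 after adjustment. Cyp4a29 had 3.46, 3.44 and 3.35 in cells given both agents, against 3.96, 3.87 and 4.09 in ALA cells. The arrays with both agents were all lower, by 0.56 ± 0.13 (SE of the difference; adjusted p of 0.653 in limma), and by 0.61 without the ALA array of passage 7. Cyp2j13 had 3.43, 3.27 and 3.24 with both agents, against 3.01, 2.94 and 2.84 in ALA cells, with each array of both agents higher and a difference of 0.38 ± 0.11 (adjusted p of 0.653 in limma), or 0.39 without that ALA array. The same ALA arrays entered ALA against control, where Cyp2j13 and Cyp4a29 had the smallest p. The opposite signs here are therefore not independent of that comparison.

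The other 3 genes at this threshold were Cyp2j5, a mouse kidney and liver epoxygenase, Cyp3a41a, a liver enzyme close in sequence to Cyp3a41b, and Cyp21a1, a hydroxylase of adrenal steroid synthesis. Cyp2j5 had 2.08, 2.43 and 2.32 with both agents, against 2.58, 3.08 and 2.70 in ALA cells. Cyp3a41a had 3.57, 3.62 and 3.27 with both agents, against 3.05, 3.07 and 3.08 in ALA cells. Cyp21a1 had 4.09, 3.86 and 4.34 with both agents, against 4.40, 4.64 and 5.08 in ALA cells. In each of these genes the arrays of the groups did not overlap, and all 3 lay below the median on every array. Without the ALA array of passage 7 the differences were -0.37 for Cyp2j5, 0.42 for Cyp3a41a and -0.65 for Cyp21a1, and 3 P450 genes had an unadjusted p under 0.01. Over the P450 genes, 8 had every array with both agents higher and 11 every one lower, against 4.75% and 6.85% of all clusters. Positive differences numbered 37 of 97, with a median of -0.08, against 46.6% of all clusters and a median of -0.02. Under quantile normalization they numbered 46, against 10900 of all 22104 clusters. All 3 measured preadipocyte markers had negative differences here too, with a median of -0.30 and none past the adjusted threshold in limma. Their mean per array was 8.64 to 8.79 with both agents and 8.77 to 9.09 in ALA cells. Positive differences were found for 3 of 8 adipocyte, 1 of 4 macrophage, 1 of 5 hepatocyte and 1 of 3 endothelial markers. The part of these markers in the P450 values was not tested.

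With both agents against the inhibitor alone, 0 P450 genes and 0 clusters (0%) passed an adjusted p of 0.05 in limma. At an unadjusted p under 0.01 there was 1, against 0.728% of all clusters, and at 0.05 there were 6, against 3.56%. That gene was Cyp2c70, which makes muricholic acids in mouse liver. It had 4.08, 4.42 and 4.11 with both agents, against 3.57, 3.89 and 3.82 in inhibitor cells. All arrays with both agents were higher, by 0.44 ± 0.13 (SE of the difference; adjusted p of 1.0 in limma). The next genes by p, each with an adjusted p of 1.0 in limma, were Cyp2s1 with a difference of 0.50, Cyp2c38 with 0.28, Cyp3a41a with 0.32 and Cyp2b13 with -0.30. Groups that did not overlap were found for 8 genes with both agents higher and 4 lower, against 4.82% and 4.91% of all clusters. Positive differences numbered 49 of 97, against 48.1% of all clusters. Once arrays were centred on their medians they numbered 45, against 9146 of all 22104 clusters.

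Whether the effect of one agent depended on the other was tested as an interaction, where 0 P450 genes and 0 clusters (0%) passed the adjusted threshold in limma, 3 genes had an unadjusted p under 0.01, against 0.638% of all clusters, and 10 under 0.05, against 3.42%. These 3 were Cyp2j13 with 0.73 ± 0.16, Cyp4a29 with -0.69 ± 0.18 and Cyp4f14 with -0.67 ± 0.21 (log2 interaction ± SE), each with an adjusted p of 1.0 in limma. Without the ALA array of passage 7 they were 0.74 for Cyp2j13, -0.74 for Cyp4a29 and -0.61 for Cyp4f14. The interaction reuses the arrays of ALA against control, where these 3 genes also had the smallest p, so it is not independent of that comparison. Cyp2c70 followed with 0.55 ± 0.18 and Cyp4f39 with -0.56 ± 0.22 (adjusted p of 1.0 for both in limma). Without that array they were 0.61 for Cyp2c70 (unadjusted p of 0.0072 in limma) and -0.54 for Cyp4f39 (unadjusted p of 0.039). No P450 gene with a mean above the median reached an unadjusted p under 0.01 in these treatment comparisons, which were fitted without passage. Cyp2f2 is the exception once passage is a block. Cyp1b1 averaged 9.64 ± 0.21 with both agents, 9.63 ± 0.28 with ALA, 9.60 ± 0.30 with the inhibitor and 9.76 ± 0.10 in control cells (SD, n = 3 each). Cyp4f13 averaged 9.10 ± 0.14 with both agents, 8.98 ± 0.14 with ALA, 9.19 ± 0.08 with the inhibitor and 9.02 ± 0.12 in control cells. Cyp2j6 averaged 7.36 ± 0.21 with both agents, 7.39 ± 0.24 with ALA, 7.41 ± 0.22 with the inhibitor and 7.31 ± 0.14 in control cells. For these 3 genes the arrays of each treatment overlapped with those of control. Within passages 6, 7 and 8 the difference of Cyp4f13 in inhibitor against control cells was 0.18, 0.11 and 0.20. In ALA against control cells it was 0.01, -0.08 and -0.08. The differences of Cyp1b1 and Cyp2j6 changed sign between passages for either agent against control.

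**Figure D4:**
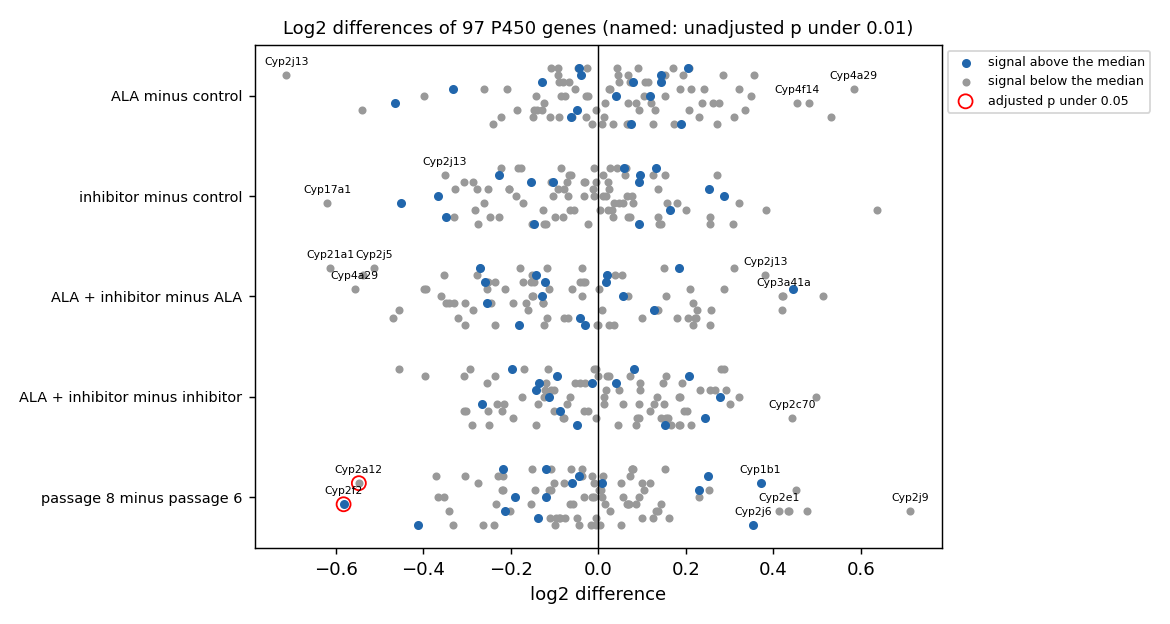
Log2 differences (horizontal axis) of the 97 P450 genes in 5 comparisons, 1 point a gene, blue where the mean signal was above the median of all clusters and grey where below. Genes with an unadjusted p under 0.01 are named, none of the blue points is named in a treatment comparison, and the only 2 ringed points, past an adjusted p of 0.05, are Cyp2f2 and Cyp2a12 in the passage comparison.

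Cell passage gave the only P450 genes past the adjusted threshold. The 4 arrays of a passage were its 4 treatments, so the variation between repeats of a passage was not measured. In a fit with terms for treatment and passage, Cyp2f2 and Cyp2a12 fell in passage 8 against passage 6, 2 of 97 genes, and 1.91% of all clusters (423) passed the same threshold in limma. At an unadjusted p under 0.01 there were 6 P450 genes, 4 higher and 2 lower, against 5.95% of all clusters, so the share among P450 genes was near that of all clusters. Positive differences were found for 42 of 97 genes, with a median of -0.02, against 47.1% of all clusters with a median of -0.01. Under quantile normalization 49 were positive, against 10539 of all 22104 clusters, so the side of the P450 majority depends on the scaling.

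Cyp2f2 had 8.02, 7.80 and 7.54 in passages 6, 7 and 8 of cells given both agents, 8.28, 8.15 and 7.70 in ALA cells, 8.28, 8.22 and 7.67 in inhibitor cells, and 8.72, 8.75 and 8.06 in control cells. Within every treatment passage 8 was the lowest, and passage 8 of the control was about as high as passage 6 of the cells given both agents. The difference of passage 8 minus passage 6 was -0.58 ± 0.09 (SE; adjusted p of 0.011 in limma), with passage means of 7.74 ± 0.22 in passage 8 and 8.33 ± 0.29 in passage 6 (SD, n = 4 each). The call was lost without the passage 6 array of both agents (adjusted p of 0.0508), the passage 8 array of the control (0.0528) or of the inhibitor (0.0559), without a treatment term (0.17), and without all arrays of any one treatment, while the difference stayed between -0.64 and -0.53 when arrays were left out. Cyp2f2 also had its highest values in control cells, but its difference of -0.46 ± 0.23 in ALA against control cells had an adjusted p of 1.0 in limma. That fit has no passage term, and within passages 6, 7 and 8 the difference was -0.44, -0.60 and -0.35. For the inhibitor against control it was -0.44, -0.53 and -0.38 within passages 6, 7 and 8, one sign in every passage for both agents.

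Cyp2a12, a mouse liver hydroxylase of bile acids, had 4.99, 4.87 and 4.35 in passages 6, 7 and 8 with both agents, 4.88, 5.03 and 4.39 with ALA, 4.83, 4.83 and 3.97 with the inhibitor and 4.69, 4.78 and 4.48 in control cells. All passage 8 arrays lay below all passage 6 arrays. The difference was -0.55 ± 0.11 (SE; adjusted p of 0.038 in limma), and its signal was below the median on every array. Its call was lost under quantile normalization (adjusted p of 0.0549), in a fit of the arrays compared alone (0.108) and without any one array other than those of ALA passage 7 and control passage 8 (highest adjusted p of 0.23, over single arrays or whole treatments), and the difference then lay between -0.66 and -0.44.

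Cyp2a12 and Cyp2f2 are neighbours in RefSeq's gene order, in a run of 8 P450 coding genes that begins with Cyp2b23 and ends with Cyp2t4. In the order of the run the log2 differences of passage 8 minus passage 6 were 0.23 for Cyp2b23, 0.01 for Cyp2b19, -0.37 for Cyp2g1, 0.00 for Cyp2a5, -0.30 for Cyp2a22, -0.55 for Cyp2a12, -0.58 for Cyp2f2 and -0.11 for Cyp2t4. Of these, Cyp2f2 alone had a mean above the median, and Cyp2a22 and Cyp2g1 did not pass the adjusted threshold. Cyp2a genes are alike in sequence, and whether the clusters share signal was not tested.

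**Figure D5:**
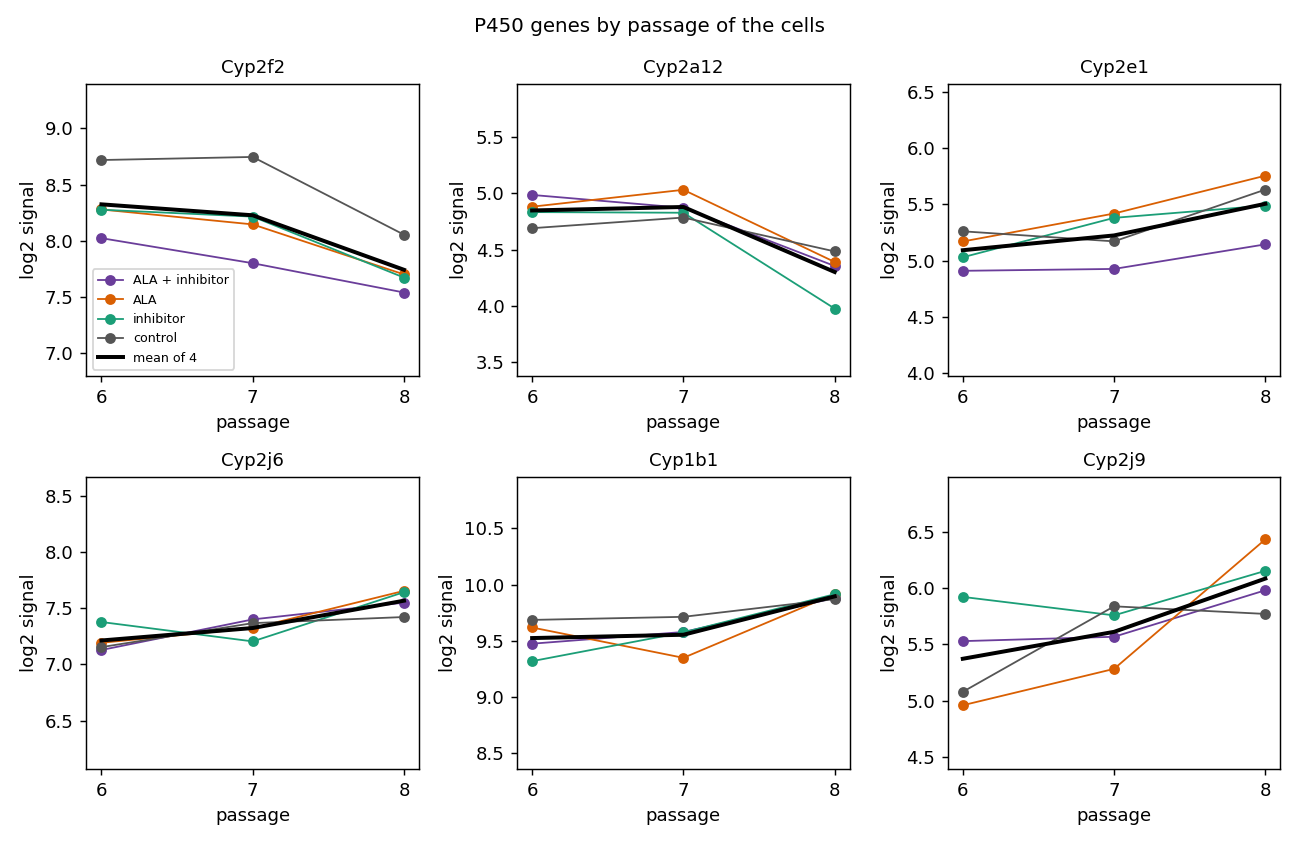
Log2 signal (vertical axis) of the 6 P450 genes with an unadjusted p under 0.01 between passages 8 and 6, by passage (horizontal axis), 1 coloured line a treatment and a black line for the mean of 4 arrays. Cyp2f2 and Cyp2a12 are lowest in passage 8 in each treatment, and Cyp2e1, Cyp2j6, Cyp1b1 and Cyp2j9 have higher means in passage 8 than in passage 6.

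The 4 genes that were higher in passage 8 at an unadjusted p under 0.01 did not pass the adjusted threshold in limma. Cyp2e1, the ethanol-oxidising enzyme, averaged 5.51 ± 0.26 in passage 8 and 5.09 ± 0.15 in passage 6 (SD, n = 4 each), a difference of 0.41 with an adjusted p of 0.069 in limma. Cyp2j6 averaged 7.57 ± 0.11 in passage 8 and 7.21 ± 0.11 in passage 6, with an adjusted p of 0.107. Cyp1b1 averaged 9.90 ± 0.02 in passage 8 and 9.52 ± 0.16 in passage 6, with an adjusted p of 0.115. Every passage 8 array of Cyp2j6 and of Cyp1b1 lay above every passage 6 array, which for Cyp1b1 had 9.87 to 9.92 in passage 8 and 9.32 to 9.69 in passage 6. Cyp2j9 had the largest difference, 0.71 ± 0.20 (adjusted p of 0.122), and within the ALA cells it was 1.48. Over the P450 genes, 3 had every passage 8 array higher, Cyp1b1, Cyp20a1 and Cyp2j6, and 4 every one lower, Cyp2a12, Cyp2d40, Cyp39a1 and Cyp4b1, against 7.13% and 5.35% of all clusters.

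Of the genes that work with the P450 enzymes, 1 passed the test between passages. Among the 11 measured genes of haem metabolism, the synthesis enzyme gene Alad fell by 0.42 in passage 8 against passage 6 (adjusted p of 0.038 in limma) and the other 10 did not pass. None of the measured redox partners, epoxide hydrolases or regulators passed. Ephx1 averaged 10.02 in passage 8 and 10.47 in passage 6, with an adjusted p of 0.057, and Cyp51 averaged 9.81 in passage 8 and 10.24 in passage 6, with an adjusted p of 0.081. The adipocyte markers had 8 of 8 positive differences, with a median of 0.15 and none past the adjusted threshold, and their mean level per array lay between 11.96 and 12.04 in passage 8 and between 11.74 and 11.95 in passage 6. Their part in the P450 differences was not tested. Between treatments, no gene of these lists passed the adjusted threshold in limma in any comparison.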

How the data were processed

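RNA of 12 cultures was measured on Affymetrix-type arrays from 100 ng total RNA, per the labels' protocols. The deposited values are log2 signals, and the submitters' processing notes name RMA as the authors' tool; its version, the array build and any filter are not given in the sources used here. Gene symbols came from the array annotation. The P450 genes, roles and lists were chosen with earlier results of these data known.

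All 22104 clusters were fitted with limma 3.58.1 (R 4.3.3; lmFit and eBayes) on 4 treatment means, with 8 residual degrees of freedom, and with treatment and passage for the passage comparison. P-values were adjusted by Benjamini-Hochberg over all clusters, with 0.05 as threshold; the series' design used an unadjusted 0.01. The genes named are those above the median of all clusters, up to 5 with the smallest unadjusted p under 0.05 in each comparison, and genes listed for their known roles. Genes just under the median, the run of neighbours and those past or not overlapping at a threshold were added by these criteria after their values were seen.

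Arrays of the same passage were checked for pairing: deviations from group means correlated by 0.163 to 0.235 for both agents against ALA, all over 0.1, where the block is therefore given, and not all over 0.1 in the other comparisons. For ALA against control they correlated by 0.013 to 0.459. Treatment fits without the block have no term for passage, so their standard errors and p-values include variation between passages. On simulated data for ALA against control (22104 clusters), 45 of 50 clusters shifted by 1 and 5 of 50 shifted by 0.5 on the log2 scale were recovered. Noise there was drawn independently for each array, without a passage effect, and several sizes of shift were set at once. Recovery in the real data may differ. The number of arrays limits the precision. Alternatives were array weights, an intensity trend, median centring, quantile normalization, a filter on the dimmest 30% of clusters, the passage as a block, only the arrays compared, and leaving out arrays. Promoters came from RefSeq.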

Additional observations from a re-analysis of the deposited data

How the results depend on the processing

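In the treatment comparisons and the interaction, 0 P450 genes and 0 clusters passed an adjusted p of 0.05 in limma under any alternative or with any array left out. The counts of P450 genes at an unadjusted p under 0.01 moved with the settings. The share of all clusters at this threshold was not counted under them, apart from 2.54% with the block for both agents against ALA. The counts are thus not read as results about P450 genes. Without the dimmest 30% of clusters the P450 counts were 0 in the interaction (3 before) and in each treatment comparison. The genes called before lay in that dimmest 30% and were removed, not retested. These counts of 0 therefore say nothing about their calls. For the inhibitor against control (2), the passage as a replicate block gave 5, an intensity trend 1, and median centring, quantile normalization and the arrays compared alone 0 each. For both agents against ALA (5), the replicate block gave 8, a trend 3 and the arrays compared alone 1. For both agents against the inhibitor (1), array weights gave 2, and a trend and the arrays compared alone 0. When arrays were left out the counts ran from 2 to 3 for ALA against control, 0 to 3 for the inhibitor against control (0 without the control array of passage 6 or 7), 2 to 10 for both agents against ALA (10 without the ALA array of passage 6, and 3 without that of passage 7 or 8 or without the array of both agents of passage 6 or 7), 0 to 2 for both agents against the inhibitor (0 without the inhibitor array of passage 6) and 2 to 4 for the interaction. Deviations of arrays of the same passage correlated by -0.045 to 0.459 over 18 pairs, 13 of them over 0.1, and by -0.443 to 0.215 over 36 pairs of different passages, and 10 of 12 arrays correlated best with an array of their own passage, a hint from the data. For passage 8 against passage 6, P450 genes past the adjusted threshold (2) numbered 1 with no treatment term, under quantile normalization and with the arrays compared alone, 4 with array weights and 4 with a trend. All clusters (423) numbered 690 with weights, 1163 with a trend, 719 without the dimmest 30% and 176 with the arrays compared alone. Leaving out arrays gave 0 to 2 P450 genes, 3 to 8 at an unadjusted p under 0.01, and 10 to 593 clusters, with 10 when all control arrays were left out and 140 to 162 without any one of 7 arrays of passages 6 and 8, and 246 without the control array of passage 7. The causes were not tested. Both called genes lost their call often, Cyp2f2 under 8 of 23 alternatives and Cyp2a12 under 16 of 22, while Cyp1b1 and Cyp2e1 gained one under 2 of 23 each. None of the 635 values of named genes changed sign. These genes were picked for a small p on the same arrays, so a stable sign is no support for their differences. With the passage as a replicate block, Cyp2f2 differed by -0.46 ± 0.10 in ALA against control (unadjusted p of 0.00098, adjusted p of 0.901) and by -0.45 ± 0.10 in inhibitor against control (unadjusted p of 0.0012, adjusted p of 0.457), the 1 gene above the median at an unadjusted p under 0.01 in each. The 15 genes above the median stayed 15 under the 3 alternatives tried. For 1 of them, all clusters of the matched symbols, the set was the same 97 clusters, so its count could not differ. Most P450 genes lie near the low end of the signals, where probe background is a larger share of the value and no detection call was used. With 3 arrays a group, shifts of 0.5 on the log2 scale were mostly missed on simulated data, which held no passage effect.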
